A study of Mus musculus with 16 samples.

Results

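Glycolysis and hypoxia response genes were examined in cultured mouse macrophages that were grown from bone marrow (bone marrow-derived macrophages, BMDMs). The 41 genes were chosen by function, as glycolytic enzymes, transporters of glucose and lactate, and genes of the hypoxia-inducible factor (HIF) response, and they were matched by symbol to the 55487 gene identifiers in the count table. The choice was made with earlier results of these data known. All 41 were among the 12372 genes tested, which had a CPM value, the count relative to the library total, above 1 in at least 2 of 16 samples. Of the 41, 39 also reached this level in at least 2 of the 5 samples without tumor medium, and the other 2, Adm and Ak4, were tested because of their level in the other samples.

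The BMDMs came from wild-type Balb/c mice with a labelled age of 8 weeks, and the mice from which each sample came are not named. RNA was sequenced from cells in DMEM, the plain medium (2 samples), DMEM with ruxolitinib (DMEM + Rux, 3 samples), conditioned medium from 4T1 cells (CM, 3 samples), CM with 0.5 μM ruxolitinib (CM + Rux, 3 samples labelled 4 h), the same mixture labelled 2 h (CM + Rux 2 h, 2 samples), and the mixture of CM and ruxolitinib with IKK-16 at 0.8 μM (CM + Rux + IKK-16, 3 samples). 4T1 is a mouse mammary tumor cell line, ruxolitinib blocks JAK1 and JAK2, the kinases upstream of STAT factors, and IKK-16 blocks the IKK kinases upstream of NF-κB. The study asked how tumor-derived soluble factors and these inhibitors change macrophage gene expression. Its methods grew 4T1 cells in RPMI and do not name the medium in which they were starved of serum for CM. Tumor-derived factors and other differences between CM and plain DMEM, such as the base medium or its use by the cells, cannot be told apart. The labels give neither the dose of ruxolitinib in DMEM nor what the 2 h refers to. In the study's methods, the cells were starved of serum, ruxolitinib was already present before CM was added, and RNA was taken after 4 h of CM.

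Glycolysis splits glucose into pyruvate in the cytosol. Glucose enters through transporters of the Slc2a family, hexokinases trap it, and phosphofructokinase commits it to the pathway. Lactate dehydrogenase turns pyruvate into lactate, which leaves the cell through monocarboxylate transporters. HIF is a pair of proteins, an oxygen-regulated alpha subunit and the constant partner Arnt. In oxygen, prolyl hydroxylases of the Egln family mark the alpha subunit for destruction through the Vhl protein. When oxygen falls, HIF binds short DNA elements with the core ACGTG or GCGTG near genes of glucose use, mitochondrial turnover and blood vessel growth. Inflammatory activation of macrophages is also known to raise glycolysis and Hif1a.

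Because many of these genes are textbook HIF targets, their promoters were read for the core letters. The windows run from 250 bases before to 50 bases after a transcription start, 300 bases in all, and come from RefSeq on build GRCm38.p6. Of the 41 genes, 36 had at least 1 window, and Slc2a3, Epas1, Bnip3l, Ero1l and Ndrg1 had none. Windows of 5 genes are shown 5′ to 3′ on the strand of the gene, with capitals on each match of ACGTG or GCGTG on either strand (CACGT and CACGC when the match is on the other strand). Pfkfb3, Slc16a3, Bnip3 and Ldha are shown as genes that rose in CM, in glucose use, lactate handling and mitochondrial turnover, and Pfkm as a gene that fell.
Pfkfb3 (chr2:11502041-11502340, minus strand): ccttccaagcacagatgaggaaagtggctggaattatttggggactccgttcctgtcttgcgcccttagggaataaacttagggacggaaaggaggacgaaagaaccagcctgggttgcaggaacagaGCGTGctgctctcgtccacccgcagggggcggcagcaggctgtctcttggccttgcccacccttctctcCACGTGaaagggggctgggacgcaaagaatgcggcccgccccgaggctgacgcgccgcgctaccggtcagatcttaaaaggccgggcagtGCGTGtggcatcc
Slc16a3 (chr11:120948817-120949116, plus strand): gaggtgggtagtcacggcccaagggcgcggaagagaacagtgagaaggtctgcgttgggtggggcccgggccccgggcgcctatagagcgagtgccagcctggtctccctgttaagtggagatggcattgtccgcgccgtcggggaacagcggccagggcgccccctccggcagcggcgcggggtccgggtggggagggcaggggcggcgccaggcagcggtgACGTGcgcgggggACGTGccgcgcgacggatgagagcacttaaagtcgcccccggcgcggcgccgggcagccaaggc
Bnip3 (chr7:138909457-138909756, minus strand): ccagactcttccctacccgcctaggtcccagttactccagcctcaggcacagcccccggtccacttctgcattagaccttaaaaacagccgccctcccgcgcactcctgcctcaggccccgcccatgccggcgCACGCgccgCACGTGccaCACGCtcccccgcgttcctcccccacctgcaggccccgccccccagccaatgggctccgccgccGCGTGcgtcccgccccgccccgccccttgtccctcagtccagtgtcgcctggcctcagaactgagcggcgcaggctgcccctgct
Ldha (chr7:46845554-46845853, plus strand): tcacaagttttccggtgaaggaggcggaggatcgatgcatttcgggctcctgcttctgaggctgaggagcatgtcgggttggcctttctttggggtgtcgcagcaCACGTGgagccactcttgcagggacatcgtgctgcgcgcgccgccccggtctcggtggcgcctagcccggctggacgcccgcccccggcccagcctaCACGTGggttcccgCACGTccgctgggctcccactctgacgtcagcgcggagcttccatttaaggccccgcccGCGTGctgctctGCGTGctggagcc
Pfkm (chr15:98092339-98092638, plus strand): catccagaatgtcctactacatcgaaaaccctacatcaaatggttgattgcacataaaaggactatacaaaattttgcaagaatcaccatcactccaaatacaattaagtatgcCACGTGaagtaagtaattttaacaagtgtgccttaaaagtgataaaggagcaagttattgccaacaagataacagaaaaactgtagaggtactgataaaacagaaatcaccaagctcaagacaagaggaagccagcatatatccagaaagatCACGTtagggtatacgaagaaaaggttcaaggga

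Ldha and Pfkfb3 have 2 windows each and Pfkm has 4, and the one with the most matches is shown. The Ldha window held 7 matches, the Bnip3 window 5, the Pfkfb3 window 4, the Pfkm window 3 and the Slc16a3 window 2. The palindrome CACGTG, which is also the E-box read by MYC and other factors of that family, counts as 2 matches because each strand holds ACGTG. At least 1 match stood in a window of 33 of the 36 genes (91.7%), against 6273 of the 9210 tested genes with a window (68.1%) and 12628 of all 27025 genes in the table (46.7%), with every window of a gene counted. Of all genes called higher in CM that had a window, 1354 of 1929 (70.2%) held a match. Within the 36 genes, the share was 27 of 29 for those called higher in CM and 6 of 7 for the others, Pfkm among them. The windows of the 36 genes had a median GC content of 64.5%, against 60.7% over genes tested, and its part in the share was not tested. A gene with more windows had more chances of a match, and the number of windows per gene was not matched. A match is a run of letters and not evidence of binding.

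The counted fragments of a sample summed to between 18449388 and 46215853, and replicates of a group differed by more than counting noise. The labels do not say whether the samples of a group came from separate animals or cultures, so p-values measure the spread between these samples, which may be technical. Values are given as CPM after scaling by relative log expression (RLE). All 8 macrophage markers, such as Adgre1, Csf1r and Lyz2, had a group mean above 1 CPM in every group. Summed over 6 markers, epithelial RNA reached 0.732 to 1.45 CPM in CM and 0 to 0.118 CPM in DMEM, and summed neutrophil, erythroid, and T and NK cell markers stayed at or below 0.814 CPM in every sample. The 5 B cell markers summed to 1.14 to 1.21 CPM in DMEM and 0.122 to 0.267 CPM in CM. The 5 fibroblast markers, mostly Col1a1 and Col1a2, summed to 11.6 to 18.8 CPM in DMEM, 11.8 to 19.1 CPM in CM and 5.73 to 20.9 CPM over the other groups. The 5 dendritic cell markers summed to 8.58 to 12.7 CPM in CM + Rux 2 h and to at most 2.36 CPM in the other groups, and Zbtb46 made up most of that sum. The part of these cell type markers in the results was not tested. In bulk RNA, fewer cells of a type and less RNA per cell cannot be told apart.

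Most of the glycolysis and hypoxia genes were higher in BMDMs in CM than in plain DMEM. Compared with DMEM, 31 of the 41 were called higher and 3 lower, where a call needs an adjusted p below 0.05 and a log2 fold change of more than 0.5 in size (edgeR quasi-likelihood test, Benjamini-Hochberg adjustment). By the same rule 20.9% of all genes tested were higher and 24.1% lower. Adm and Ak4 are among the 31. They passed the filter only through samples with CM, so a rise over DMEM was built in for them. The median log2 fold change was 1.5 over the 41 genes and -0.0050 over all genes tested. Every CM sample lay above both DMEM samples for 35 of the 41 genes, which was so for 37.8% of genes tested, and below both for 4 (37% of genes tested). RLE scaling set the log2 fold changes of this comparison 0.31 higher, by the median over genes, than scaling by total counts, under which 26 of the 41 were called higher and the same 3 lower. The 5 genes lost with total counts were Aldoa, Pkm, Pdk1, Ndrg1 and Kdm3a. Adjusted p-values of the 31 genes ran from 1.8e-09 for Pgam1 to 0.016 for Ndrg1.

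The 41 genes together took 0.581% to 0.69% of all counts in the 5 samples without CM and 1.33% to 1.47% in CM. The share was 1.24% to 1.37% in CM + Rux, 1.08% to 1.22% with IKK-16 and 0.712% to 0.777% in CM + Rux 2 h. The CM + Rux 2 h samples lay between the samples without CM and the other samples with CM, and the ranges of CM and CM + Rux overlapped.

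**Figure D1:**
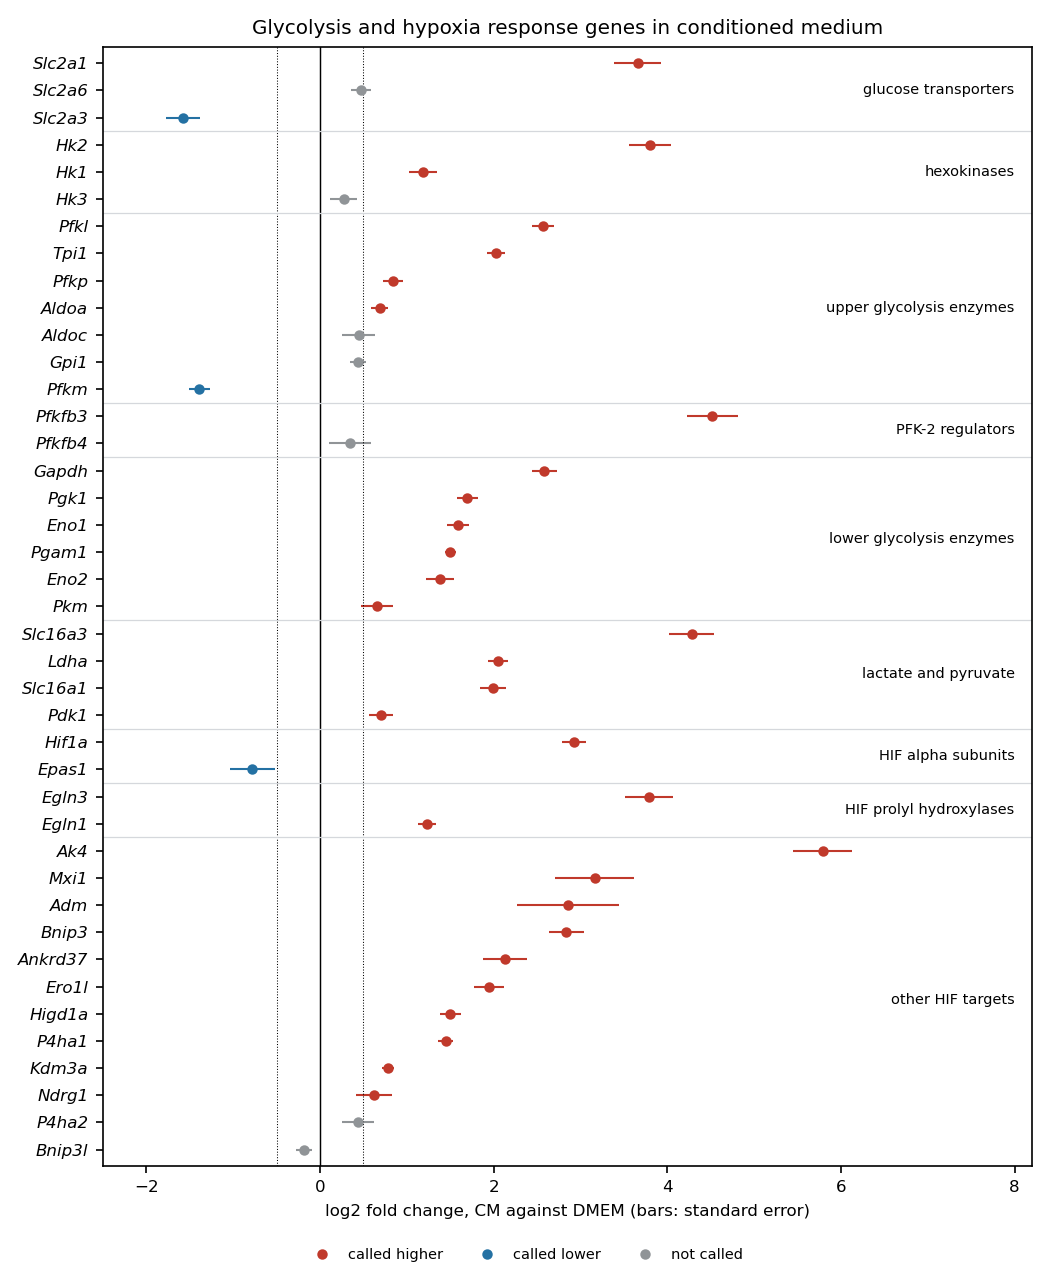
Log2 fold change of each of the 41 genes in CM (n = 3) against DMEM (n = 2), grouped by role, with bars of 1 standard error and dotted lines at 0.5 on either side of 0. Ak4 lies farthest to the right at 5.79, the 3 blue points on the left are Slc2a3, Pfkm and Epas1, and the 7 grey points were not called. Ak4 and Adm passed the filter only through samples with CM.

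The glucose transporter genes moved apart at the RNA level, and the uptake of glucose was not measured. Slc2a1, which encodes the main glucose importer of many cell types, lies on chromosome 4 from 119108711 to 119137983 (ENSMUSG00000028645). It had 88.9 and 50.8 CPM in the DMEM samples and 826, 1073 and 754 CPM in the CM samples. The groups were far apart, with a log2 fold change of 3.66 (SE 0.27, adjusted p = 1.1e-07). Slc2a3, a high-affinity glucose transporter gene on chromosome 6 from 122727809 to 122801640 (ENSMUSG00000003153), went down. Its levels were 17.4 and 23.6 CPM in DMEM against 8.67, 7.42 and 4.52 CPM in CM, again without overlap, and the log2 fold change was -1.58 (SE 0.20, adjusted p = 1.3e-05). Slc2a6, another member of the family, had a log2 fold change of 0.47 and was not called. Levels per kilobase were taken over all annotated exon bases of a gene, which can exceed the length of its mRNA. Per kilobase of exon, Slc2a6 had the highest level of these genes in DMEM, with 85.1 ± 5.82 CPM per kb (SD, n = 2) against 19.9 ± 7.69 for Slc2a1. In CM the order was turned, with 252 ± 47.7 CPM per kb (SD, n = 3) for Slc2a1 and 118 ± 10.9 for Slc2a6.

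Hexokinases phosphorylate glucose on entry, and Hk2 is the inducible form. Hk2 had 32.3 and 30.3 CPM in DMEM and 409, 498 and 408 CPM in CM. The CM samples lay far above both DMEM samples, and the log2 fold change was 3.81 (SE 0.24, adjusted p = 2.7e-08). Hk1 also rose, by 1.19 on the log2 scale, while Hk3 had a log2 fold change of 0.27 and was not called. With total counts alone the value of Hk3 was -0.035. Per kilobase, Hk3 led in DMEM with 59.9 ± 9.19 CPM per kb (SD, n = 2), followed by 14.1 ± 0.474 for Hk1 and 5.25 ± 0.229 for Hk2. In CM, Hk2 and Hk3 did not differ beyond their spread, at 73.4 ± 8.65 and 72.4 ± 5.95 CPM per kb (SD, n = 3), and Hk1 was lower at 32.1 ± 5.24. Hk1 has 8532 annotated exon bases against 3682 for Hk3. In CPM, not divided by length, the CM means were 438 for Hk2, 274 for Hk1 and 267 for Hk3.

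Of 7 genes for the upper steps of glycolysis, 4 rose, 1 fell and 2 were not called. Pfkl, the liver-type subunit of phosphofructokinase, rose by 2.57 on the log2 scale (SE 0.13, adjusted p = 4e-09) and Pfkp, the platelet-type subunit, by 0.84. Pfkm, the muscle-type subunit, fell. It had 16.1 and 17.1 CPM in DMEM and 6.89, 6.47 and 5.66 CPM in CM, a log2 fold change of -1.39 (SE 0.12, adjusted p = 3.6e-07). Per kilobase, the levels in DMEM were 8.17 ± 0.234 CPM per kb for Pfkp, 6.97 ± 0.626 for Pfkl and 4.97 ± 0.22 for Pfkm (SD, n = 2). The annotated exon bases are 13401 for Pfkp, 6675 for Pfkl and 3340 for Pfkm, so these levels depend on the length used. In CPM, not divided by length, the DMEM means were 109.5 for Pfkp, 46.5 for Pfkl and 16.6 for Pfkm. In CM the levels per kilobase were 41.4 ± 4.09 for Pfkl, 14.6 ± 1.48 for Pfkp and 1.90 ± 0.188 for Pfkm (SD, n = 3). The CM means in CPM were 276 for Pfkl, 196 for Pfkp and 6.34 for Pfkm. Of the Pfkm exon bases, 10.2% are shared with another gene on the same strand, where fragments were not counted. Tpi1, triose phosphate isomerase, rose by 2.03 and the aldolase gene Aldoa by 0.69. Gpi1, the phosphoglucose isomerase, and Aldoc, a second aldolase, had log2 fold changes of 0.44 and 0.45 and were not called.

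Pfkfb3 and Pfkfb4 make and remove the sugar phosphate that activates phosphofructokinase. Pfkfb3, on chromosome 2 from 11471433 to 11554077 (ENSMUSG00000026773), had 33.5 and 40.4 CPM in DMEM and 902, 1008 and 628 CPM in CM. The groups were far apart, and the log2 fold change of 4.52 (SE 0.29, adjusted p = 3.1e-08) was the second largest of the 41 genes. Pfkfb4 had a log2 fold change of 0.35 (SE 0.24, adjusted p = 0.23) and was not called.

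All 6 genes for the lower steps of glycolysis, from triose phosphate to pyruvate, rose. Gapdh had 10.1 and 10.9 CPM in DMEM and 64.2, 62.4 and 62.0 CPM in CM, with little spread and a log2 fold change of 2.59 (SE 0.15, adjusted p = 9.3e-09). Gapdh is usually among the abundant mRNAs, and this level is low. The authors left out fragments that align to several places, and the Gapdh transcripts share runs of 100 bases with 82 annotated pseudogenes, so its level is uncertain. The changes given for Gapdh, here and below, are those of the fragments that were counted. The kinase gene Pgk1 rose by 1.70, the enolase genes Eno1 and Eno2 by 1.59 and 1.38, the mutase gene Pgam1 by 1.5, and the pyruvate kinase gene Pkm by 0.66. Runs of 100 bases in other transcripts covered 51.7% of Pgk1, 33.9% of Pgam1 and 20.4% of Eno1, and part of their fragments could not be counted. The same holds for Bnip3 (24.6%) and Higd1a (19.9%), described below, and some other genes had smaller shares. Of the Pkm exon bases, 15.3% are shared with another gene on the same strand. Pkm was not called without DMEM replicate 2.

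The genes of lactate and pyruvate handling rose in all 4 cases. Ldha, the lactate dehydrogenase subunit that favours lactate, lies on chromosome 7 from 46841475 to 46855627 (ENSMUSG00000063229). It had 284 and 271 CPM in DMEM and 1076, 1254 and 1120 CPM in CM, and rose by 2.05 on the log2 scale (SE 0.12, adjusted p = 1.3e-08). Slc16a3, which encodes a lactate exporter and lies on chromosome 11 from 120948480 to 120960868 (ENSMUSG00000025161), had 39.7 and 30.2 CPM in DMEM and 629, 779 and 638 CPM in CM. The change of Slc16a3 was much larger than its spread, at 4.28 (SE 0.26, adjusted p = 1.8e-08). Slc16a1, a related monocarboxylate transporter gene, rose by 1.99. Pdk1, a kinase that inhibits the pyruvate dehydrogenase complex in mitochondria, had 12.1 and 16.6 CPM in DMEM and 21.6, 23.6 and 24.6 CPM in CM. The change of Pdk1 was smaller, at 0.70 (SE 0.14, adjusted p = 7e-04). Pdk1 and Ndrg1 were not called without DMEM replicate 1.

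The genes of the HIF alpha subunits changed in opposite directions. Hif1a lies on chromosome 12 from 73901375 to 73947530 (ENSMUSG00000021109), had 164 and 123 CPM in DMEM and 1068, 1215 and 977 CPM in CM, and rose by 2.92 (SE 0.13, adjusted p = 1.9e-09). Epas1, which encodes the other alpha subunit, fell from 9.80 and 10.6 CPM to 5.95, 5.34 and 6.59 CPM, a log2 fold change of -0.78 (SE 0.26, adjusted p = 0.018). The fall of Epas1 was not called without CM replicate 2 or without DMEM replicate 2. Both hydroxylase genes rose. Egln3, on chromosome 12 from 54178981 to 54203860 (ENSMUSG00000035105), had 1.95 and 2.62 CPM in DMEM and 25.2, 36.5 and 31.6 CPM in CM, a log2 fold change of 3.79 (SE 0.27, adjusted p = 7.7e-08). Egln1 rose by 1.23 on the log2 scale and remained the more abundant of the pair per kilobase, with 35.6 ± 3.10 CPM per kb in CM against 11.7 ± 2.14 for Egln3 (SD, n = 3).

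Of 12 further HIF target genes, 10 rose and 2 were not called. Ak4, an adenylate kinase gene of the mitochondrial matrix on chromosome 4 from 101419277 to 101466995 (ENSMUSG00000028527), had the largest log2 fold change of the 41 genes. It had 0.797 and 0.818 CPM in DMEM and 43.0, 39.4 and 52.0 CPM in CM, a log2 fold change of 5.79 (SE 0.34, adjusted p = 1.4e-08). Ak4 passed the filter only through samples with CM, so a rise over DMEM was built in. Mxi1, a repressor that competes with MYC for its partner, had 24.0 and 22.5 CPM in DMEM and 168, 307 and 150 CPM in CM. CM replicate 2 stood above the other CM samples for Mxi1, and the change was 3.16 (SE 0.45, adjusted p = 3.9e-05). Bnip3, a receptor for the removal of mitochondria on chromosome 7 from 138890836 to 138909519 (ENSMUSG00000078566), had 13.0 and 15.7 CPM in DMEM and 94.8, 124 and 87.9 CPM in CM. The log2 fold change of Bnip3 was 2.84 (SE 0.20, adjusted p = 6.5e-08), while the related gene Bnip3l had one of -0.18 and was not called.

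Adm encodes adrenomedullin, a vasodilator peptide. It was near the limit of detection, with 5 counts in each DMEM sample (0.148 and 0.205 CPM) and 27 to 41 counts in CM (1.5, 1.22 and 1.14 CPM), and had a log2 fold change of 2.86 (SE 0.58, adjusted p = 7.4e-04). Like Ak4, Adm passed the filter only through samples with CM. Ankrd37 rose by 2.13, Ero1l, an oxidase that forms disulfides in the endoplasmic reticulum, by 1.95, and Higd1a, a small mitochondrial protein gene, by 1.5. P4ha1, a collagen prolyl hydroxylase gene, rose by 1.45, the histone demethylase gene Kdm3a by 0.78 and the stress response gene Ndrg1 by 0.62. P4ha2 had a log2 fold change of 0.44 and was not called.

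**Figure D2:**
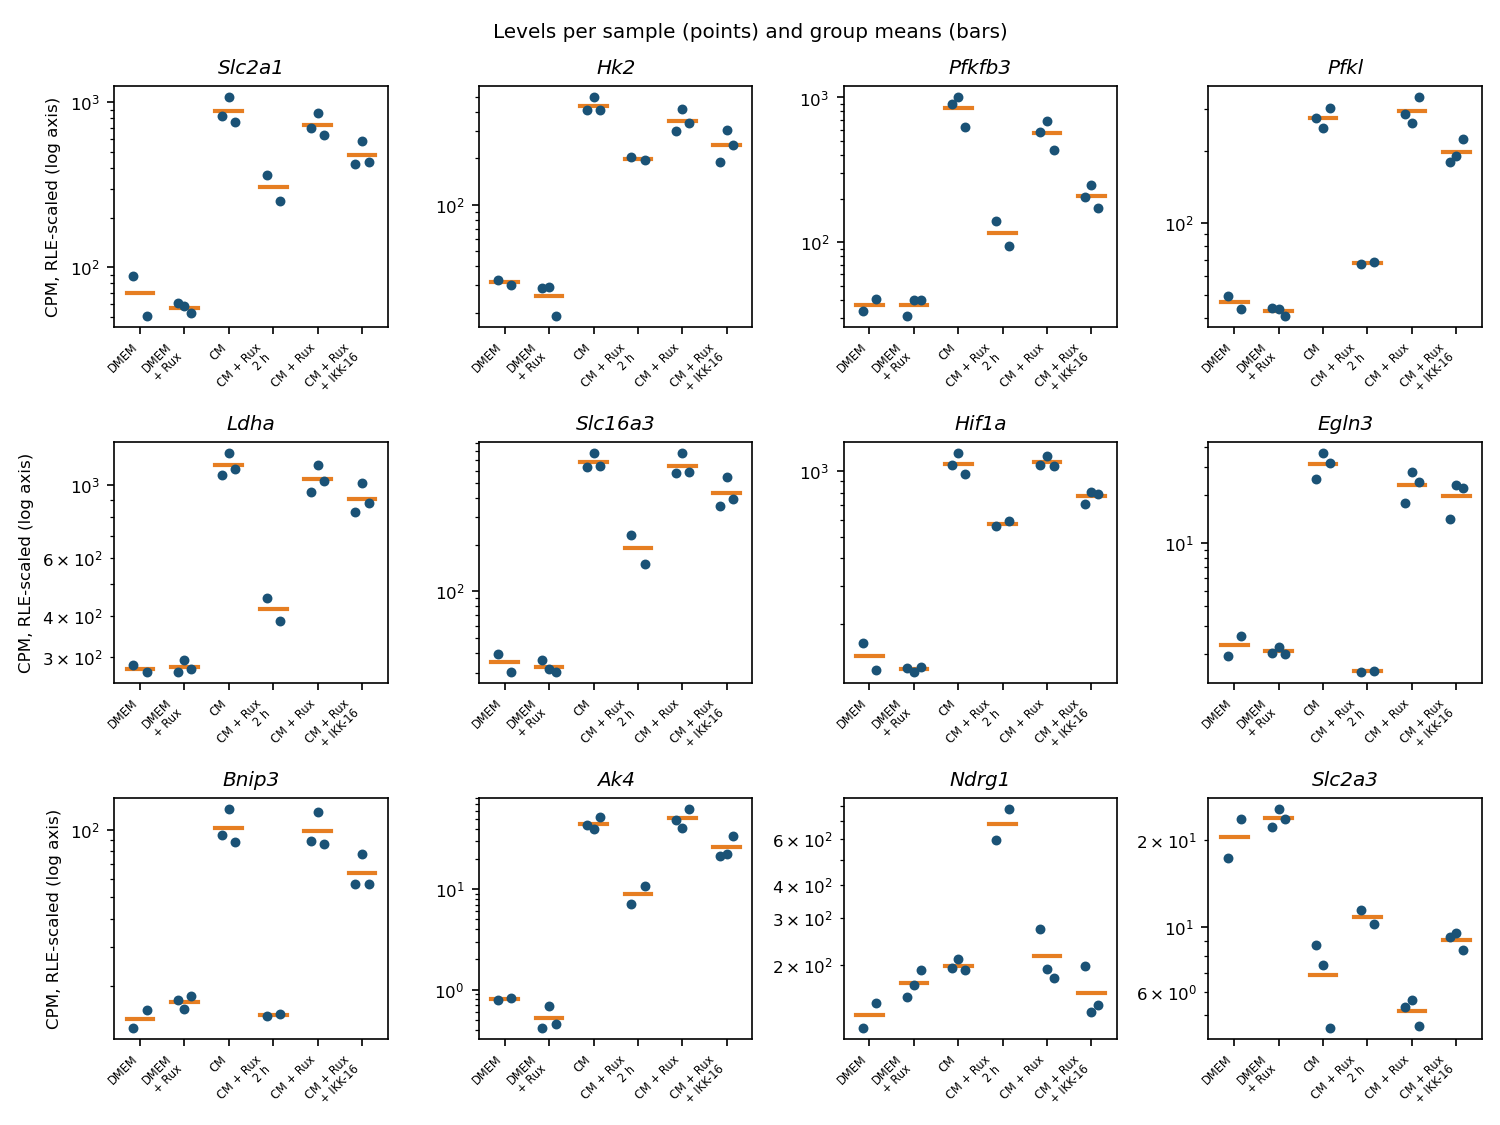
CPM of 12 of the genes in each sample (points) and the mean of each group (bars), on a log axis, in the 6 groups. Slc2a1, Hk2, Pfkfb3, Slc16a3, Hif1a and Ak4 are high in all 3 groups of CM samples without the 2 h label, Egln3 and Bnip3 at 2 h lie near or below the DMEM level, Ndrg1 is highest at 2 h, and Slc2a3 is lower in the CM samples than in DMEM.

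In most lists of related metabolic genes outside the 41, few genes rose in CM. Of 6 other tested isozymes of glycolysis, 0 rose and 2 fell, Pfkfb2 the most (-1.31, adjusted p = 3.3e-06). Of 8 genes of the pentose phosphate pathway, which branches off glycolysis, 0 rose and 2 fell, and the log2 fold change of G6pdx, its entry enzyme, was -0.80. Of 3 gluconeogenesis genes, 2 fell, Pck2 by 2.27 on the log2 scale. Of 11 genes for the entry of pyruvate into mitochondria and its oxidation there, 0 rose and 2 fell. The log2 fold change of Pdk2, of the same kinase family as Pdk1, was -1.67. Of 11 glycogen genes 4 rose and 3 fell, with the largest changes in Ppp1r3b (3.16), which targets a phosphatase to glycogen, and Gbe1 (-0.76), the branching enzyme. The lists are small, were chosen with earlier results of these data known, and were not tested as sets. Over all genes tested 20.9% rose and 24.1% fell, so 2 of 8 or 2 of 11 falling is no more than about that share.

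In the lists of oxygen sensing and of further hypoxia genes, more genes rose than fell. Of 11 tested genes for oxygen sensing other than those above, 6 were called higher and 0 lower, and their median was 0.61. Vhl, which marks HIF alpha for destruction, had the largest change, 1.61 (SE 0.12, adjusted p = 7e-08). Of 26 further hypoxia genes tested, 14 were called higher and 7 lower, and their median was 0.69. Angptl4, a lipoprotein lipase inhibitor, fell the most, with 7.81 ± 0.862 CPM in DMEM (SD, n = 2), 0.390 ± 0.108 CPM in CM (SD, n = 3) and a log2 fold change of -4.34 (SE 0.39, adjusted p = 5.1e-07).

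The 2 h label gave the largest contrast among the CM samples with ruxolitinib. In CM + Rux 2 h, 25 of the 41 genes were called lower and 4 higher than in CM + Rux, against 10.7% lower and 12.6% higher over all genes tested. The median log2 fold change was -0.89 over the 41 genes and -0.027 over all genes. Both 2 h samples lay below all 3 CM + Rux samples for 28 genes (31.2% of genes tested) and above them for 5 (28.5%). This comparison uses no sample of CM against DMEM. Of the 31 genes called higher in CM than in DMEM, 24 were lower at 2 h, 1 was higher and 6 were not called, and all 3 genes called lower in CM were higher at 2 h. The same shares were not counted over all genes called in CM against DMEM, so these counts are not read as particular to the 41. Zbtb46 had means of 10.1 CPM at 2 h and 1.89 CPM in CM + Rux, and its part in these results was not tested.

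The largest falls were in genes of the HIF response. Egln3 had 1.55 and 1.58 CPM at 2 h and 17.7, 27.7 and 24.1 CPM in CM + Rux, and its log2 fold change was -3.89 (SE 0.29, adjusted p = 5.8e-07). Ankrd37 had 0.607 and 0.409 CPM at 2 h against 6.31, 5.95 and 5.75 CPM, a change of -3.48 (SE 0.29, adjusted p = 1.3e-06). Bnip3 had 14.8 and 15.1 CPM at 2 h against 88.8, 120 and 86.7 CPM, a change of -2.73 (SE 0.20, adjusted p = 5.8e-07). None of these groups overlapped. Ak4 had 7.12 and 10.7 CPM at 2 h against 49.0, 40.4 and 62.6 CPM, which is a change of -2.53 (SE 0.26, adjusted p = 8.7e-06).

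Part of the glycolysis genes were also lower at 2 h. Pfkfb3 had 139 and 93.6 CPM at 2 h and 574, 688 and 435 CPM in CM + Rux, and its log2 fold change was -2.28 (SE 0.26, adjusted p = 2e-05). Pfkl had 67.5 and 68.8 CPM against 286, 262 and 337 CPM, a change of -2.11 (SE 0.13, adjusted p = 2.4e-07). For Slc16a3 the values were 232 and 151 CPM against 576, 778 and 584 CPM, and its change was -1.75 (SE 0.23, adjusted p = 5.8e-05). Of the 7 upper glycolysis genes, 3 were lower, 1 was higher and 3 were not called, and of the 3 hexokinase genes 1 was lower. Of the lower glycolysis genes, 5 of 6 were lower, from -1.28 for Pgk1 to -0.67 for Pkm. Eno2 (-0.32, adjusted p = 0.13), Gpi1 (-0.47), Pfkp (0.057), Aldoc (0.029), Hk1 (-0.22), Hk3 (0.26), Pfkfb4 (-0.64, adjusted p = 0.057), Slc16a1 (-0.50) and Slc2a6 (0.31) were not called. Ldha changed by -1.32, Tpi1 by -1.43, Slc2a1 by -1.24 and Hk2 by -0.82. Without 1 of the 2 h samples, replicate 3, Hk2 and Pkm were not called.

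A few genes were higher at 2 h. Ndrg1 had 591 and 777 CPM at 2 h and 273, 193 and 179 CPM in CM + Rux, and its log2 fold change was 1.67 (SE 0.20, adjusted p = 2.8e-05), and its level was above that of every other group. Epas1 was higher by 1.37 on the log2 scale, with 8.36 and 16.4 CPM at 2 h, Slc2a3 by 1.06 and Pfkm by 0.66. Mxi1 and Adm had log2 fold changes of 0.16 and -0.16 (adjusted p = 0.77 and 0.79) and were not called. Among related lists, 12 of 26 further hypoxia genes were lower and 3 higher, and 5 of 11 glycogen genes were lower, Gys1, the glycogen synthase, the most (-2.41). Fam162a, a mitochondrial protein gene, had the largest fall of the hypoxia list at -1.79, and Ppfia4 the largest rise at 1.58. Of the other lists, the largest called changes were those of Bpgm (-0.87) and Ldhb (0.80) among isozymes, Pck2 (0.91) in gluconeogenesis, Pdp2 (-0.82) and Pdp1 (0.53) in pyruvate entry and Vhl (-0.83) in oxygen sensing.

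Against DMEM, the 2 h samples showed part of the CM pattern. This comparison was added after the data were seen, and it shares samples with both comparisons above. In it 18 of the 41 genes were called higher and 4 lower, against 16.8% higher and 20.5% lower over all genes, with medians of 0.42 and -0.020. Both 2 h samples lay above the DMEM samples for 26 genes (36.9% of genes tested) and below them for 9 (39.4%). The scaling shift was 0.36 here, and with total counts alone 13 genes were higher and 9 lower. The largest log2 fold changes were 3.49 for Mxi1, 3.44 for Ak4, 3.37 for Adm, 2.67 for Hk2, 2.45 for Slc16a3, 2.41 for Ndrg1, 2.14 for Slc2a1 and 2.01 for Hif1a. Ak4 and Adm passed the filter only through samples with CM, so a rise over DMEM was partly built in. For Mxi1, Adm and Ndrg1 the values in CM against DMEM, which holds no ruxolitinib, were 3.16, 2.86 and 0.62. On the log2 scale, the means of CM + Rux over those of DMEM were 3.32, 3.49 and 0.74 for these genes. Bnip3 had a log2 fold change of 0.057 (SE 0.21) and Egln3 one of -0.53 (SE 0.33), neither of them called. CM against DMEM gave 2.84 and 3.79 for Bnip3 and Egln3, and the means of CM + Rux over DMEM gave 2.78 and 3.34. Ankrd37 was lower at 2 h than in DMEM (-1.20, adjusted p = 0.0078), and so were Slc2a3 (-0.91), Pdk1 (-0.63) and Pfkm (-0.59). The labels give no time for the DMEM samples. With the replicate number in the model, Pfkl and Pfkm were not called and Egln3 was called lower. Without DMEM replicate 2, Pfkl, Pdk1 and Ankrd37 were not called, which left 2 lower genes, and without a 2 h sample Ldha and Pdk1 (replicate 2) or Pfkm (replicate 3) were not called.

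**Figure D3:**
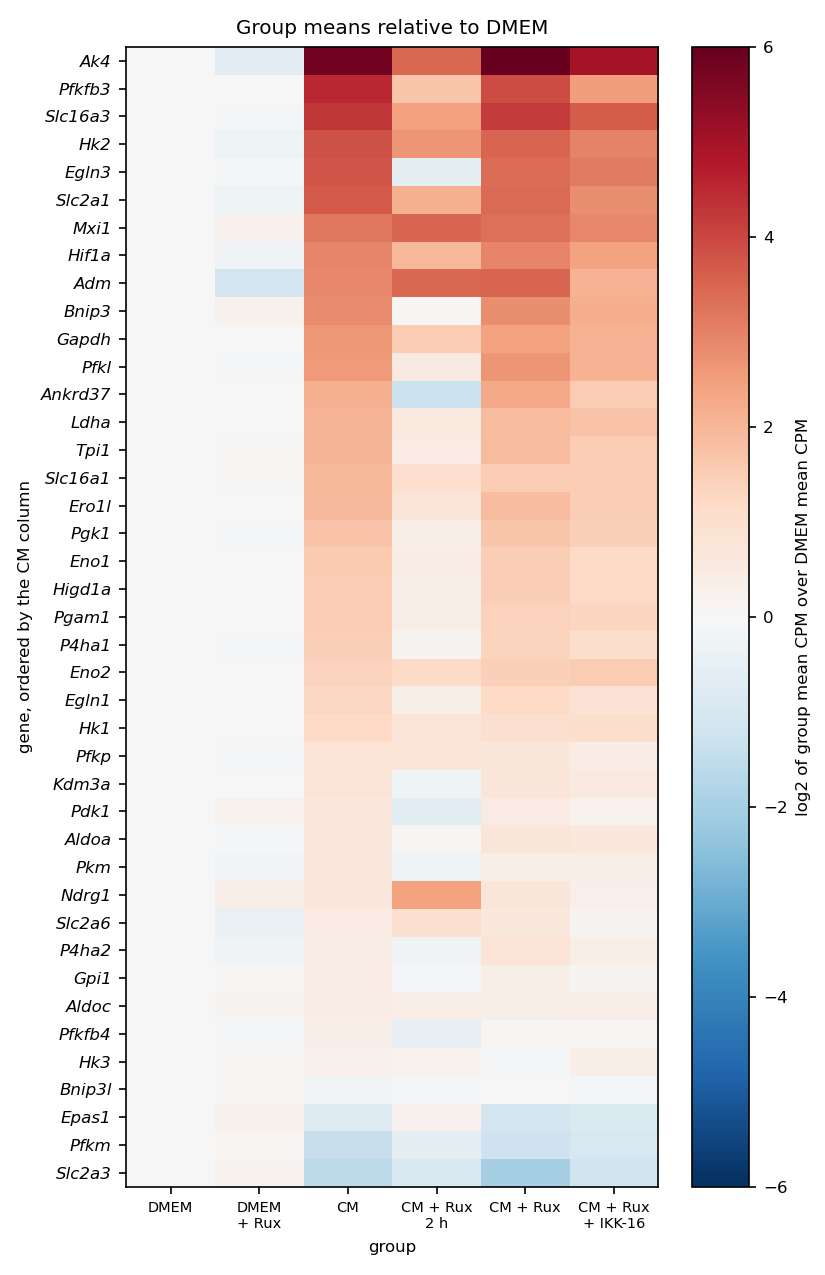
Log2 of the mean CPM of each group over the mean CPM of DMEM for the 41 genes (rows, ordered by the CM column) in the 6 groups (columns), from blue at -6 to red at 6. The CM, CM + Rux and CM + Rux + IKK-16 columns are red in their upper part, the 2 h column is pale at Egln3, Bnip3, Ankrd37 and the lower glycolysis genes but red at Ndrg1, Mxi1 and Adm, and the DMEM + Rux column is pale at most genes.

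Ruxolitinib left no called change in these genes, with or without CM. In CM + Rux against CM, 0 of the 41 were called higher and 0 lower, where 1.2% and 2.13% of all genes tested were called (edgeR). With unadjusted p-values and the fold change threshold kept, 0 were higher and 1 was lower, and DESeq2 called 0 in either direction. The median log2 fold change was -0.082 over the 41 genes and 0.0071 over all genes. For 39 of the 41 genes the 95% interval of the log2 fold change lay within 1 on either side of 0. The exceptions were Pfkfb3 and Adm. All CM + Rux samples lay below the CM samples for 6 genes (9.57% of genes tested) and above them for 2 (9.66%).

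That gene was Pfkfb3. It had 902, 1008 and 628 CPM in CM and 574, 688 and 435 CPM in CM + Rux, and the groups overlapped. The log2 fold change was -0.58 (95% interval -1.03 to -0.13, adjusted p = 0.16). Samples of the same replicate number deviated together in these groups, and with the number as a block in the model Pfkfb3 was called lower (-0.58, adjusted p = 0.0051). Adm had a log2 fold change of 0.67 (95% interval -0.12 to 1.46). Slc16a1 changed by -0.48, short of the fold change threshold, with an adjusted p of 0.043, and was called lower without CM replicate 3 or without CM + Rux replicate 2. Slc2a3 (-0.39, adjusted p = 0.37) was called lower without CM replicate 3. Hk3, Egln3, P4ha2 and Bnip3l also had an unadjusted p under 0.05, with log2 fold changes of -0.35, -0.43, 0.39 and 0.21 that did not reach the fold change threshold. Hif1a had 1066, 1182 and 1063 CPM in CM + Rux, within the range of the CM samples.

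In DMEM + Rux against DMEM, 0 of the 41 genes were called in either direction by edgeR, where 0% of all genes rose and 0.97% fell past the thresholds. With unadjusted p-values 0 were higher and 0 lower, as with DESeq2. The median log2 fold change was -0.0050, against 0.0100 over all genes tested, and the interval lay within 1 of 0 for 38 genes. All DMEM + Rux samples lay above the DMEM samples for 4 genes (9.66% of genes tested) and below them for 5 (8.84%). The exceptions, Adm, Ak4 and Mxi1, had wide intervals, and Adm had 1 to 6 counts per sample in DMEM + Rux. An interaction term tested whether ruxolitinib acted differently in CM and in DMEM, and 0 genes were called higher and 0 lower by edgeR (0.234% and 0.178% of genes tested). At an unadjusted p, with the fold change threshold kept, 2 were higher and 2 lower. Slc2a6 had the smallest adjusted p, with a difference of 0.62 (adjusted p = 0.099). It had 286 and 260 CPM in DMEM, 184, 227 and 192 CPM in DMEM + Rux, 340, 385 and 409 CPM in CM, and 391, 429 and 467 CPM in CM + Rux. The interaction of Slc2a6 was called with DESeq2 and with the replicate block (adjusted p = 0.013 and 0.007).

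Adding IKK-16 to CM + Rux lowered a subset of the genes. Of the 41, 8 were called lower and 1 higher than in CM + Rux, against 3.66% and 4.07% of all genes tested. The median log2 fold change was -0.275 over the 41 genes and -0.0019 over all genes, and 33 genes had a value below 0. All 3 samples with IKK-16 lay below the 3 CM + Rux samples for 21 genes (17.1% of genes tested) and above them for 3 (14.5%). Of the 31 genes called higher in CM than in DMEM, which shares no sample with this comparison, 7 were called lower with IKK-16 and 24 were not called. The share of all genes called higher in CM that were lower with IKK-16 was not counted. With the replicate block 11 genes were called lower.

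Pfkfb3 fell the most among these genes, from 574, 688 and 435 CPM to 204, 247 and 172 CPM with IKK-16. The log2 fold change of Pfkfb3 was -1.45 (SE 0.21, adjusted p = 8e-04), and the groups did not overlap. Adm went from 1.99, 2.78 and 1.17 CPM to 0.489, 1.10 and 0.669 CPM, a change of -1.44 (SE 0.38, adjusted p = 0.019). Ak4 went from 49.0, 40.4 and 62.6 CPM to 21.5, 22.4 and 34.0 CPM, a change of -0.96 (SE 0.20, adjusted p = 0.0066).

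Ankrd37 fell from 6.31, 5.95 and 5.75 CPM to 3.66, 3.54 and 3.58 CPM (-0.74, SE 0.19, adjusted p = 0.019). Bnip3 fell from 88.8, 120 and 86.7 CPM to 57.4, 77.8 and 57.0 CPM (-0.62, SE 0.16, adjusted p = 0.017). Pfkl fell from 286, 262 and 337 CPM to 180, 191 and 225 CPM (-0.57, SE 0.11, adjusted p = 0.0032). In each of these genes the groups did not overlap.

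Hif1a itself fell slightly, from 1066, 1182 and 1063 CPM to 709, 804 and 790 CPM, a log2 fold change of -0.52 (SE 0.11, adjusted p = 0.0054). Slc2a6 changed by -0.51. Both values are close to the fold change threshold, and Hif1a, Pfkl and Slc2a6 were not called with total counts alone, under which 5 genes were lower. Slc2a3 was the gene called higher, from 5.34, 5.64 and 4.58 CPM to 9.30, 9.60 and 8.35 CPM, a log2 fold change of 0.80 (SE 0.19, adjusted p = 0.012). Slc2a1 (-0.60), Slc16a3 (-0.58) and Hk2 (-0.52) had adjusted p-values of 0.071, 0.055 and 0.073, and were called lower with the replicate block (adjusted p = 0.02, 0.0097 and 0.014) and with DESeq2.

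The count of genes lowered by IKK-16 rested in part on single samples. Without CM + Rux + IKK-16 replicate 1 it was 4, with Hif1a, Slc2a6, Bnip3, Ankrd37 and Adm no longer called and Ndrg1 added. Without CM + Rux + IKK-16 replicate 3 or without CM + Rux replicate 2 it was 5, and without CM + Rux + IKK-16 replicate 2 it was 11, and Hk3 joined Slc2a3 as called higher. Pfkfb3, Ak4 and Slc2a3 were called whichever sample was left out. Among the related lists, 8 of 26 further hypoxia genes were lower and 4 higher. Of these, Cxcr4, a chemokine receptor, had the largest rise (1.47). Pfkfb2 (0.63) and Pdp1 (0.62), a phosphatase that opposes the kinases of the Pdk family, were the genes called in the lists of other isozymes and of pyruvate entry.

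**Figure D4:**
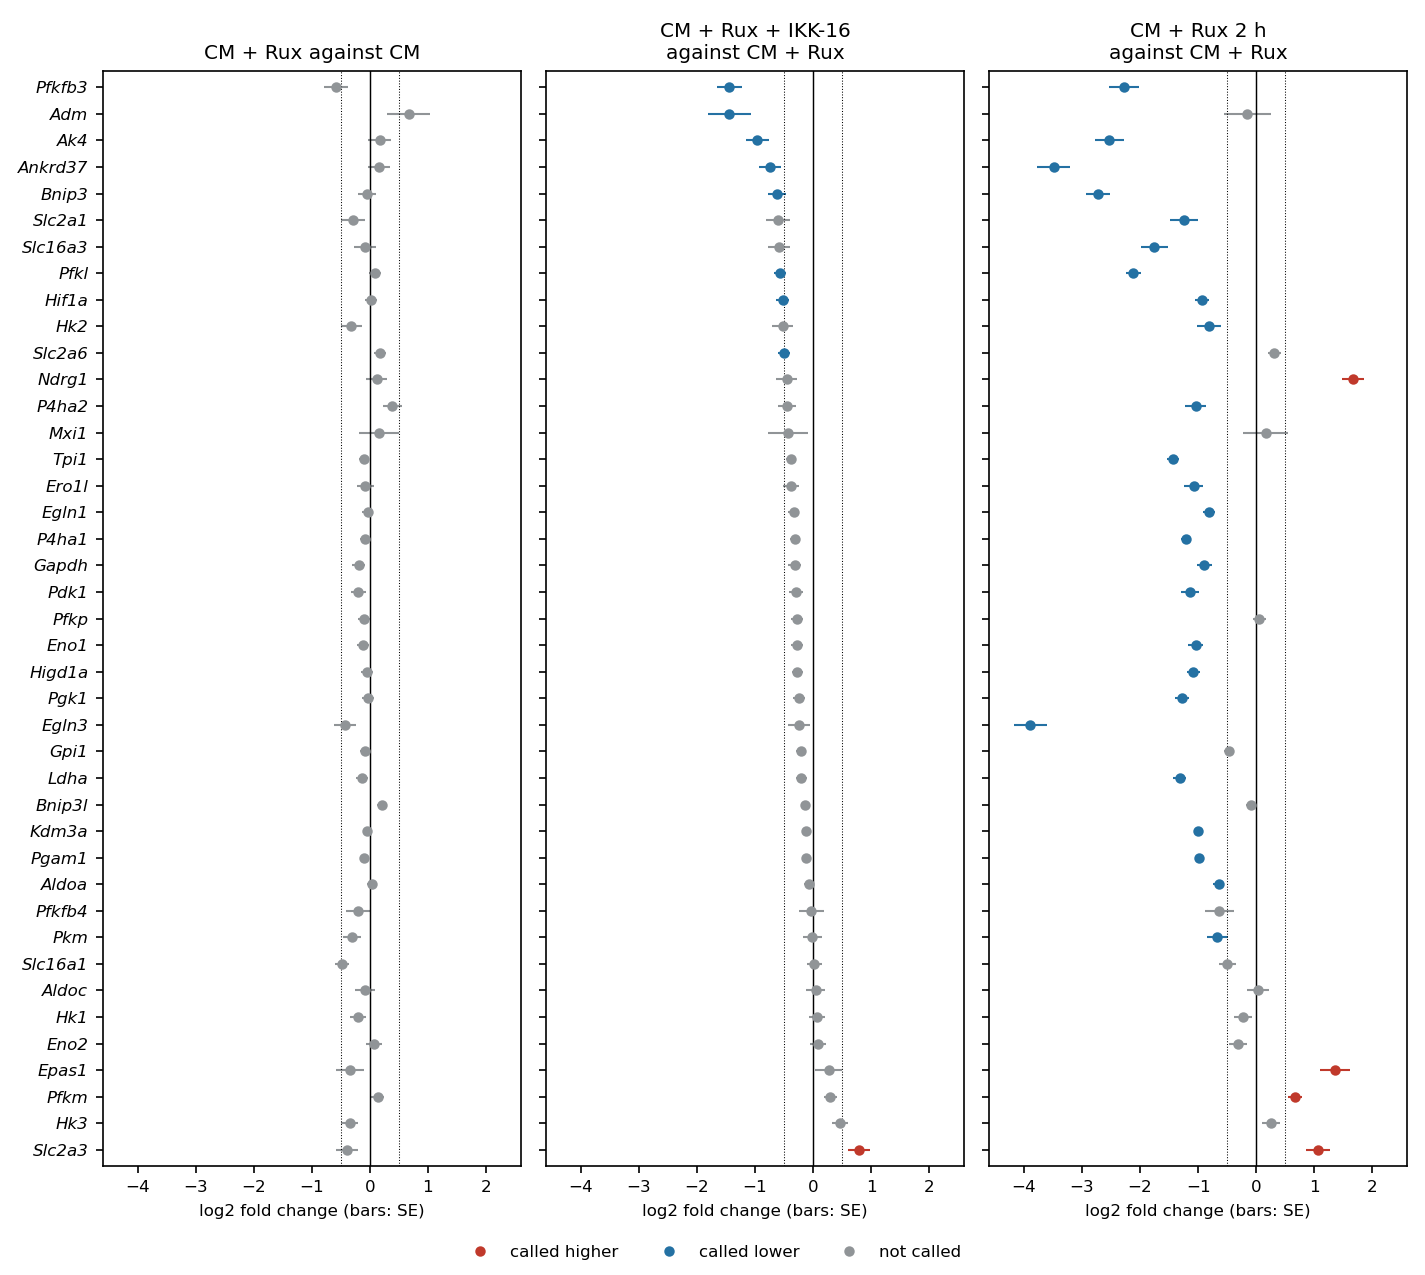
Log2 fold changes of the 41 genes, with bars of 1 standard error and dotted lines at 0.5 on either side of 0, for ruxolitinib against CM alone (left), IKK-16 against CM + Rux (middle) and 2 h against CM + Rux (right) (n = 3 in each group, 2 at 2 h). The left panel holds grey points only, the middle panel has 8 genes called lower and Slc2a3 called higher, and the right panel has 25 called lower, down to -3.89 for Egln3, and 4 called higher.

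With both inhibitors, 10 genes were called lower and 0 higher than in CM alone, against 6.13% lower and 6.6% higher over all genes tested (edgeR). The median log2 fold change was -0.34, against 0.00027 over all genes. All samples with both inhibitors lay below the CM samples for 28 genes (19.7% of genes tested) and above them for 1 (18.2%). Pfkfb3 had the largest log2 fold change, -2.03 (SE 0.22, adjusted p = 3.2e-05). It was followed by Slc2a1 with -0.88 (adjusted p = 0.0081), with 826, 1073 and 754 CPM in CM and 423, 582 and 433 CPM with both inhibitors. Hk2 changed by -0.84, from 409, 498 and 408 CPM to 188, 302 and 244 CPM. Ak4 (-0.79), Bnip3 (-0.67), Egln3 (-0.67), Slc16a3 (-0.66), Ankrd37 (-0.59), Gapdh (-0.50) and Hif1a (-0.50) were the others. For the genes Slc2a1 and Hk2, every sample with both inhibitors still lay above all samples without CM. With unadjusted p-values 0 genes were higher, and DESeq2 also called 0 higher. With total counts alone 7 genes were lower and Pfkm was higher. Without CM + Rux + IKK-16 replicate 1, 5 were lower, and without CM replicate 1 Slc2a3 was called higher. Pfkfb3, Slc2a1, Hk2 and Bnip3 were called lower whichever sample was left out, and the other 6 lost their call without at least 1 sample.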

How the data were processed

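RNA-seq of 16 BMDM samples in 6 groups was analysed. The authors trimmed the reads of stranded libraries with Trimmomatic 0.33, aligned them to GRCm38 with HISAT2 2.1.0 and counted fragments per gene with featureCounts 1.6.2, per the labels and the file header, leaving out fragments with several alignments or several genes. The deposited values are raw counts, without scaling or filter. This lowers genes with near-identical copies, such as Gapdh and Pgk1.

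Counts were scaled by relative log expression, as in the study's methods. Genes above 1 CPM, before scaling, in at least 2 samples were fitted in 1 model of 6 groups with the quasi-likelihood test of edgeR 4.0.16 in R 4.3.3, and p-values were adjusted after Benjamini and Hochberg. Genes were called at an adjusted p under 0.05 and a log2 fold change beyond 0.5. The test was checked on simulated counts. Symbols came from GENCODE M21, an annotation of the same build, and positions and lengths were those deposited with the counts. Where a symbol had several identifiers the one with the most counts was used. Every member is named, with values per sample for the largest called changes and for 10 genes named whatever their change. The members, the related lists and the tests were chosen with earlier results of these data known.

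Samples of the same replicate number deviated from their group means together in CM, CM + Rux and CM + Rux + IKK-16 (correlations of 0.391 to 0.631 over 9 pairs), so the replicate number, taken from the sample titles, was treated as pairing them and was used as a block in an alternative fit. The other alternatives were TMM scaling, scaling by total counts, no filter, DESeq2 1.42.0, no fold change threshold, unadjusted p-values, and leaving out each sample in turn.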

Additional observations from a re-analysis of the deposited data

How the results depend on the processing

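The counts of called genes in CM against DMEM, in CM + Rux 2 h against CM + Rux and in DMEM + Rux against DMEM stayed within 1.5 times the value reported under every alternative tried, with ranges over left-out samples of 30 to 34 higher and 2 to 3 lower, 4 higher and 23 to 28 lower, and 0 and 0. TMM scaling moved no count past that margin in any comparison.

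For ruxolitinib in CM, the genes called lower were 0, and 1 without the filter, 1 with the replicate block, 1 without the fold change threshold, 1 at unadjusted p-values and 0 to 2 over left-out samples. With IKK-16 added to CM + Rux, 1 gene was higher and 8 lower. Scaling by total counts gave 2 higher and 5 lower, no fold change threshold gave 2 higher, and left-out samples gave 1 to 2 higher and 4 to 11 lower. With both inhibitors against CM, 0 were higher and 10 lower. There total counts gave 1 higher, no fold change threshold gave 1 higher and 24 lower, and left-out samples gave 0 to 1 higher and 5 to 12 lower.

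In the interaction, 1 gene was called higher without the filter, 1 with DESeq2 and 1 with the replicate block, and unadjusted p-values gave 2 higher and 2 lower. In CM + Rux 2 h against DMEM, total counts gave 9 lower and left-out samples 17 to 21 higher and 2 to 4 lower. The replicate block, a pairing of samples by number, moved no other count past 1.5 times. With total counts the log2 fold change of Hk3 in CM was -0.035, and that of P4ha2 at 2 h against DMEM ranged from -0.45 to 0.084 over left-out samples. The causes of these differences were not tested.

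Groups of 2 and 3 samples limit what can be called, and the low counts of Adm and Ankrd37 limit the precision of their values. CM + Rux 2 h has no plain medium control of its own time in the labels.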
